A study of Mus musculus with 12 samples.

Results

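The lung of the mouse carries a sleeve of heart muscle around its pulmonary veins, and 10 genes of the cardiac contractile apparatus were followed here in left lung RNA. They are Myh6, Myh7, Myl4, Myl7, Mybpc3, Actc1, Tnnt2, Tnni3, Ryr2 and Nppa, chosen by name with earlier results of these data known. Each was read from the only array cluster annotated with that symbol alone, so that 10 of the 19938 genes with such a cluster are described. RNA from 12 mice was hybridised to Affymetrix MoGene 1.0ST arrays, 1 array per mouse and 3 mice per group. KOT mice were Fra-1-/- and received 0.075 U of bleomycin in 30 µL of PBS into the trachea, KOC mice were Fra-1-/- and received PBS alone, WTT mice were Fra-1+/+ and received bleomycin, and WTC mice were Fra-1+/+ and received PBS. Lungs were taken at day 5. All mice shared the mixed C57/129S background and an age of 2 months in the labels. The study's methods give an older age range than the labels do. Mice of both genotypes carried floxed alleles of Fra-1 (gene symbol Fosl1), which in Fra-1-/- mice were deleted by Meox2-Cre. This Cre acts within the embryo itself and spares the extra-embryonic lineages. Each mouse is named by its group and animal number. Values are the deposited signals on the log2 scale, normalised between arrays, so that a difference of 1 is a 2-fold difference. They compare mice within a gene and not one gene with another.

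The muscle sleeve of rodent pulmonary veins is continuous with the left atrium and reaches along the veins into the lung. Its cells resemble atrial working muscle: thick filaments of myosin heavy and light chains pull on thin filaments of actin when calcium, released from the sarcoplasmic reticulum through the ryanodine receptor, binds the troponin complex. Atrial muscle is known for the light chains Myl4 and Myl7 and for atrial natriuretic peptide (Nppa), whereas ventricular muscle carries Myl2 and Myl3. Bleomycin is a DNA-damaging drug that injures the alveolar epithelium and is widely used to induce lung fibrosis in mice, and Fra-1 is a subunit of the AP-1 transcription factor.

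The regulatory sequence around the start of 5 of these genes is shown. Whether it bears on how closely the genes moved together was not tested. Promoters of all 10 genes were found in RefSeq (build GRCm38.p6), as windows running from 250 bases before to 50 bases after an annotated start, with 12 windows in all since Tnnt2 and Myh7 have 2 each. The strand is the minus strand for Myl7 (chr11:5898733-5899032), Actc1 (chr2:114052826-114053125), Myh6 (chr14:54966558-54966857) and Myh7 (chr14:54994577-54994876), and the plus strand for Nppa (chr4:148000472-148000771). Capitals mark matches, on either strand, to 5 motifs known from muscle promoters: the CArG box that binds serum response factor, the MEF2 site, the GATA site (GATAA), the M-CAT site of TEAD factors (CATTCC) and the TATA box (TATAAA). None of the marked matches overlapped another.
Myl7: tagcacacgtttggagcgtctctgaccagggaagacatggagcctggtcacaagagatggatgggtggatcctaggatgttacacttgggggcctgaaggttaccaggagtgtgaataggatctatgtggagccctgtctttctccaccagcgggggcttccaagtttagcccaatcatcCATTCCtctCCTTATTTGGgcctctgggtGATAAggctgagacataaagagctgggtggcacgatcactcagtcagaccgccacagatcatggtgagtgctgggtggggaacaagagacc
Actc1: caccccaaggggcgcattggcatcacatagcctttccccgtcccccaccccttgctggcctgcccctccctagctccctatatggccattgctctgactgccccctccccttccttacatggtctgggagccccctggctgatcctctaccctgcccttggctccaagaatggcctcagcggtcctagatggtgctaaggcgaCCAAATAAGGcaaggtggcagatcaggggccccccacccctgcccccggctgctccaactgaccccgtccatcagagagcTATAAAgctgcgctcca
Myh6: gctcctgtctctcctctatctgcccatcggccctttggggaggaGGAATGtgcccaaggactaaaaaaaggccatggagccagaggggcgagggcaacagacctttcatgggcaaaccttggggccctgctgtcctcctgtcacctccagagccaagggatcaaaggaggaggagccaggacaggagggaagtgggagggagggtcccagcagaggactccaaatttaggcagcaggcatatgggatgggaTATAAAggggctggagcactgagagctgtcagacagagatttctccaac
Myh7: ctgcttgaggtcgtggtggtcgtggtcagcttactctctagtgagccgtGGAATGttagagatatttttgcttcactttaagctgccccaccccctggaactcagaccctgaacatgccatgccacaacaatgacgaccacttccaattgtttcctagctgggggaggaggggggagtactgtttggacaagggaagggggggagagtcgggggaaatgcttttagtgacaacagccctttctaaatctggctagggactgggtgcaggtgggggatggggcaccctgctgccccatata
Nppa: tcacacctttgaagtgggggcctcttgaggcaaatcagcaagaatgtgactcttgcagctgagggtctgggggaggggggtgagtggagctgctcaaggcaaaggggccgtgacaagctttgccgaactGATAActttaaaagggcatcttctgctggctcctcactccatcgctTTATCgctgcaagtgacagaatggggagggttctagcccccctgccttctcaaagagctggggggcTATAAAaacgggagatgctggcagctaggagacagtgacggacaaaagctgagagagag
The CArG box was present in the windows of 2 of the 10 genes, Myl7 and Actc1, and in 1.63% of all 32851 promoter windows. The M-CAT site was present in 4 (Myh6, Myh7, Myl7 and Tnnt2) against 14.7% of all windows, the GATA site in 5 (Myl7, Mybpc3, Tnnt2, Tnni3 and Nppa) against 25.4%, the TATA box in 3 (Myh6, Actc1 and Nppa) against 13.6% and the MEF2 site in Mybpc3 alone against 3.19%. The AP-1 site (TGANTCA), searched because Fra-1 belongs to the factors that bind it, was present in 0 of the 12 windows and in 7.81% of all. Matches were counted anywhere in a window, and those to the TATA box in Actc1 and Myh6 lay at or after the annotated start. These matches describe the letters of the windows only.

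Lung markers were measured in every sample, with Sftpc, the surfactant protein C gene of alveolar type 2 cells, between 13.64 and 14.07. The 12 arrays had medians between 7.14 and 7.22. Fosl1 lay between 7.28 and 7.33 in KOT, 6.26 and 6.68 in KOC, 7.81 and 8.32 in WTT and 6.37 and 6.86 in WTC, and since the files do not say whether its probes lie in the deleted part, these values do not check the deletion. On 12 of 12 arrays the levels of Xist and of Y-linked genes did not match the female sex in the labels. All Fra-1-/- mice and WTC 76 have low animal numbers and the other Fra-1+/+ mice high ones, so genotype and animal number cannot be told apart between KOT and WTT.

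In Fra-1+/+ lungs the cardiac muscle genes were lower 5 days after bleomycin. Of the 10 genes, 7 fell in WTT against WTC in the limma test (p adjusted by Benjamini-Hochberg across 23410 clusters, under 0.05), a call that 11.3% of all clusters received. The atrial light chains Myl7 and Myl4 fell by 3.81-fold and 3.74-fold, troponin I (Tnni3) by 2.81-fold, alpha myosin heavy chain (Myh6) by 2.38-fold, cardiac actin (Actc1) by 2.31-fold, beta myosin heavy chain (Myh7) by 1.93-fold and the ryanodine receptor (Ryr2) by 1.68-fold. In Fra-1-/- lungs only Myh7 passed this test with bleomycin, lower by 1.95-fold, where 7.98% of all clusters were called lower. There 7 of the 10 genes had a negative log2 fold change. The difference between the responses of the genotypes passed for 0 of the 10. No gene of the 10 passed the test between genotypes, although 7 of them were higher in every KOT mouse than in every WTT mouse, as were 6.92% of all clusters.

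Among the myosin light chains, Myl7, the regulatory light chain of atrial muscle, measured 9.24, 9.57 and 9.20 in KOT 72, 80 and 81 and 8.96, 11.00 and 10.14 in KOC 53, 55 and 67. It measured 8.55, 8.34 and 7.96 in WTT 160, 161 and 164 and 10.05, 10.55 and 10.03 in WTC 76, 157 and 158. Every WTT mouse lay below every WTC mouse, whereas KOC 53 lay below all 3 KOT mice. The log2 fold change was -1.93 (SE 0.39, limma adjusted p = 0.00501) in WTT against WTC and -0.70 (SE 0.39, adjusted p = 0.263) in KOT against KOC. Myl4, the essential light chain of atrial muscle, measured 11.04, 11.33 and 10.80 in KOT and 10.95, 12.32 and 11.84 in KOC, in the same order of mice. It measured 10.22, 10.43 and 9.49 in WTT and 11.93, 12.15 and 11.77 in WTC. Every WTT mouse again lay below every WTC mouse, while KOC 53 lay within the range of the KOT mice. The log2 fold changes were -1.90 (SE 0.31, limma adjusted p = 0.00188) in WTT against WTC and -0.65 (SE 0.31, adjusted p = 0.203) in KOT against KOC.

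The 2 heavy chains, whose genes are neighbours on chromosome 14 and encode similar proteins, differed in pattern. Whether their probes tell the pair fully apart was not tested. Myh6, the fast alpha chain of the adult mouse heart, measured 9.02, 9.04 and 8.91 in KOT and 8.27, 9.90 and 9.36 in KOC, and 8.47, 8.22 and 7.77 in WTT and 9.40, 9.68 and 9.12 in WTC. Its log2 fold change was -1.25 (SE 0.33, limma adjusted p = 0.0182) in WTT against WTC and -0.19 (SE 0.33, adjusted p = 0.768) in KOT against KOC, where the groups overlapped. Myh7, the slow beta chain, measured 8.14, 8.08 and 8.04 in KOT, 8.97, 9.18 and 9.00 in KOC, 7.76, 7.68 and 7.66 in WTT and 8.53, 8.75 and 8.67 in WTC. None of the 4 groups overlapped for Myh7, and they stood in the order WTT, KOT, WTC and KOC from low to high. It fell with bleomycin by nearly equal amounts in both genotypes, at -0.96 (SE 0.08, limma adjusted p = 1.4e-04) in KOT against KOC and -0.95 (SE 0.08, adjusted p = 8.2e-05) in WTT against WTC, and the difference between these responses was -0.01 with a 95% interval of -0.26 to 0.24. Mybpc3, cardiac myosin-binding protein C of the thick filament, stood apart from the rest. It measured 7.20, 7.40 and 7.14 in KOT, 6.67, 7.30 and 6.96 in KOC, 7.14, 7.35 and 7.36 in WTT and 7.03, 7.40 and 6.90 in WTC. All groups overlapped, and the log2 fold change in WTT against WTC was 0.17 (95% interval -0.18 to 0.53, limma adjusted p = 0.511).

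On the thin filament, cardiac alpha actin (Actc1) measured 10.16, 10.84 and 10.13 in KOT and 10.41, 11.81 and 10.83 in KOC, and 10.17, 10.12 and 9.74 in WTT and 10.93, 11.43 and 11.30 in WTC. It fell by 1.21 on the log2 scale in WTT against WTC (SE 0.31, limma adjusted p = 0.0168), and was -0.64 (SE 0.31, adjusted p = 0.198) in KOT against KOC. Tnni3, the inhibitory troponin subunit, measured 9.71, 9.88 and 9.54 in KOT and 9.54, 11.20 and 10.42 in KOC, and 9.19, 9.07 and 8.77 in WTT and 10.39, 10.75 and 10.37 in WTC. It differed by -1.49 (SE 0.31, limma adjusted p = 0.00612) in WTT against WTC and by -0.68 (SE 0.31, adjusted p = 0.175) in KOT against KOC. Tnnt2, the tropomyosin-binding troponin subunit, measured 10.76, 10.69 and 10.73 in KOT and 9.91, 11.19 and 10.72 in KOC, and 10.05, 10.54 and 9.75 in WTT and 10.76, 11.22 and 10.68 in WTC. All WTT mice lay below all WTC mice for Tnnt2, yet its log2 fold change of -0.77 (SE 0.28) did not pass the test (limma adjusted p = 0.0742). It passed without WTT 161, KOC 53 or KOC 55, at log2 fold changes of -0.99, -0.77 and -0.77.

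Outside the filaments, Ryr2, the calcium release channel, measured 7.67, 7.88 and 7.63 in KOT and 7.48, 8.50 and 8.00 in KOC, and 7.43, 7.42 and 7.19 in WTT and 8.09, 8.17 and 8.02 in WTC. It fell by 0.75 in WTT against WTC (SE 0.19, limma adjusted p = 0.0185) and was -0.26 (SE 0.19, adjusted p = 0.419) in KOT against KOC. Nppa, a secreted hormone of atrial muscle, was the most variable of the 10 genes. It measured 9.15, 9.83 and 9.23 in KOT, 6.59, 10.17 and 9.28 in KOC, 7.33, 9.19 and 6.83 in WTT and 8.63, 9.36 and 7.91 in WTC. Its groups overlapped in every comparison, with log2 fold changes of -0.85 (95% interval -2.62 to 0.92) in WTT against WTC and 0.73 (95% interval -1.05 to 2.50) in KOT against KOC.

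**Figure D1:**
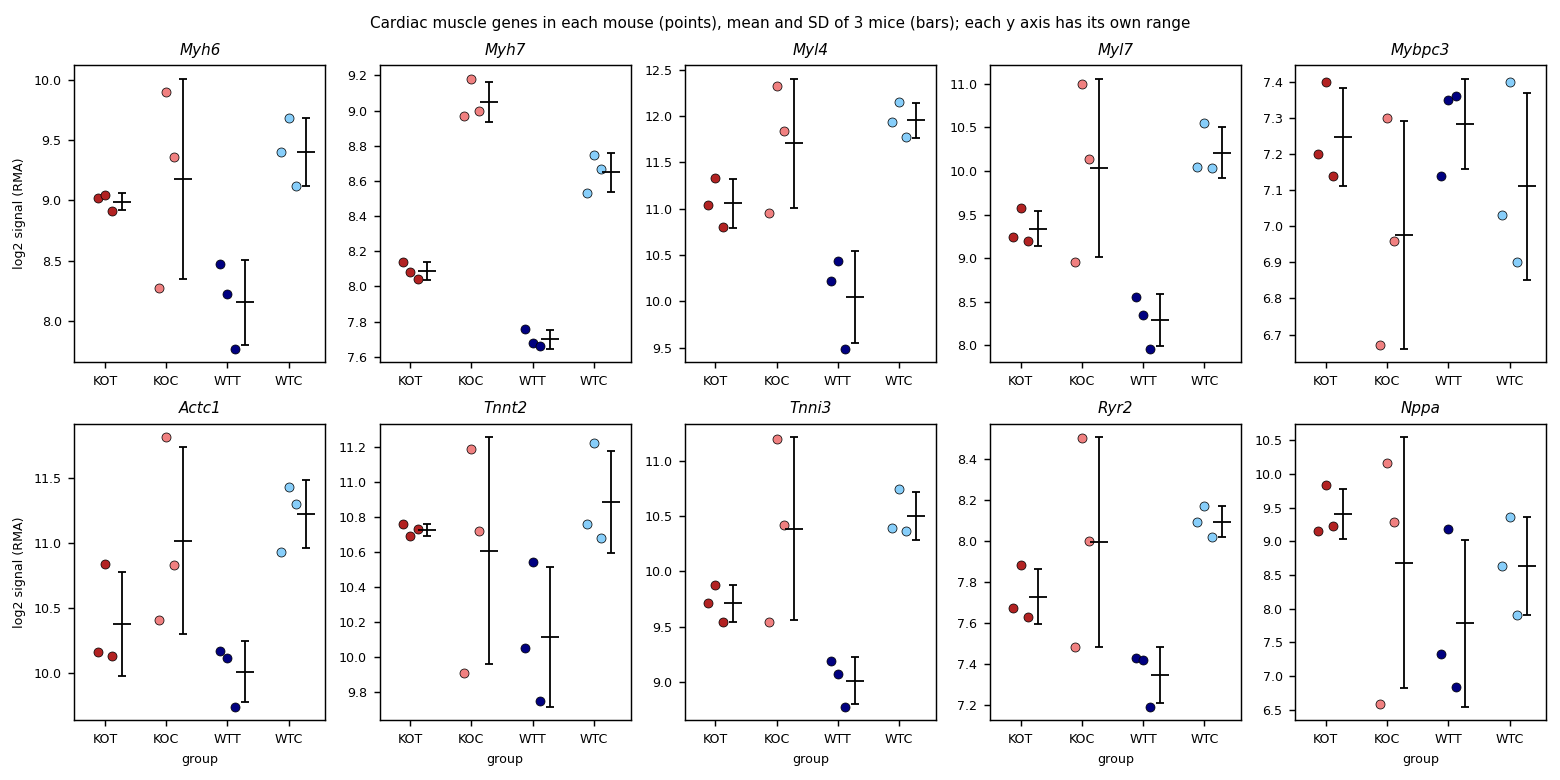
Log2 signal (y axis, with its own range in each panel) of the 10 cardiac muscle genes by group (x axis), with a point per mouse and the mean and SD of 3 mice beside them. WTT mice lie below WTC mice without overlap in 8 panels, and the KOC mice spread from 8.96 to 11.00 for Myl7 and from 6.59 to 10.17 for Nppa.

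Set against all clusters, the shift in Fra-1+/+ lungs was large. Since the genes were chosen with earlier results of these data known, this comparison is a description. The median log2 fold change of the 10 genes in WTT against WTC was -1.08, against 0.02 over all clusters tested, and 8 of the 10 had every WTT mouse below every WTC mouse, as did 17.4% of all clusters. By the local-pooled-error test, which the methods used, and which compares medians with an error taken from clusters of like signal rather than from the gene itself, 8 of the 10 genes were lower at an adjusted p under 0.01, against 4.47% of all clusters. In simulated data this test called many more unchanged clusters than limma did. The simulated noise took each cluster's own SD, a setting that goes against the pooled error of this test. Without WTC 157 or without WTT 164 the limma count was 4 of 10 (Myh7, Myl4, Myl7 and Tnni3 in both cases), without WTC 158 Actc1 alone lost its call (-1.17, adjusted p = 0.0521), and over all omissions of a single mouse it lay between 4 and 8. In bulk tissue, a smaller share of muscle cells in the sample and less RNA per muscle cell cannot be told apart.

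In Fra-1-/- lungs the median was -0.45 in KOT against KOC, against 0.02 over all clusters, and 1 of the 10 genes was called lower by limma, against 7.98% of all clusters. The 9 others had log2 fold changes between -0.70 (Myl7) and 0.73 (Nppa). The KOC mice were widely spread. KOC 53 was the lowest KOC mouse for 10 of 10 genes and KOC 55 the highest for 10 of 10, with mean deviations from the 12-mouse mean of -0.49 and 0.99 over the 10 genes, against 0.39 in KOC 67. Without KOC 53 the count was 4 (Myh7, Myl4, Myl7 and Tnni3) with a median of -0.79, and without KOC 55 it was 1 with a median of -0.11. By the local-pooled-error test 5 genes were lower (Myh7, Myl4, Myl7, Actc1 and Tnni3), against 3.63% of all clusters.

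Between bleomycin-treated genotypes 9 of the 10 genes had a positive log2 fold change in KOT against WTT, with a median of 0.65 against -0.01 over all clusters. By limma 0 of 10 passed at an adjusted p under 0.05, as did 0.0427% of all clusters. At an unadjusted p under 0.05 the limma count was 5 (Myh6, Myh7, Myl4, Myl7 and Tnni3, all higher), against 4.27% of all clusters higher at that level, and 7 of 10 did not overlap and were higher, against 6.92% of all clusters. The log2 fold changes were 1.62 for Nppa (SE 0.81), 1.05 for Myl7 (SE 0.39), 1.01 for Myl4 (SE 0.31), 0.84 for Myh6 (SE 0.33), 0.70 for Tnni3 (SE 0.31) and 0.61 for Tnnt2 (SE 0.28), and limma adjusted p for these 6 lay between 0.328 and 0.502. The local-pooled-error test called 4 higher (Myh6, Myl4, Myl7 and Nppa), against 0.555% of all clusters. Its error is not taken from the gene itself, and these 4 genes varied within groups with SDs of 0.46 to 1.19. The median SD over all clusters was 0.13. Nppa was called although its KOT and WTT mice overlapped (limma adjusted p = 0.502). The comparison of KOT against WTT shares its WTT mice with that of WTT against WTC.

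Between PBS-treated genotypes 0 of the 10 genes passed by limma, as did 0.0128% of all clusters, and by the local-pooled-error test 0 were called, against 1.79% of all clusters. The median log2 fold change was -0.15 in KOC against WTC, and it was 0.19, with 10 of 10 genes positive, without KOC 53. Myh7 alone was higher in every KOC mouse than in every WTC mouse, by 0.40 (SE 0.08, limma unadjusted p = 3.8e-04, adjusted p = 0.304), about the size of its difference of 0.39 (SE 0.08, adjusted p = 0.167) in KOT against WTT. It was the only one of the 10 at an unadjusted p under 0.05 here, a level at which 2.94% of all clusters were higher, and 6.88% of all clusters were higher without overlap.

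**Figure D2:**
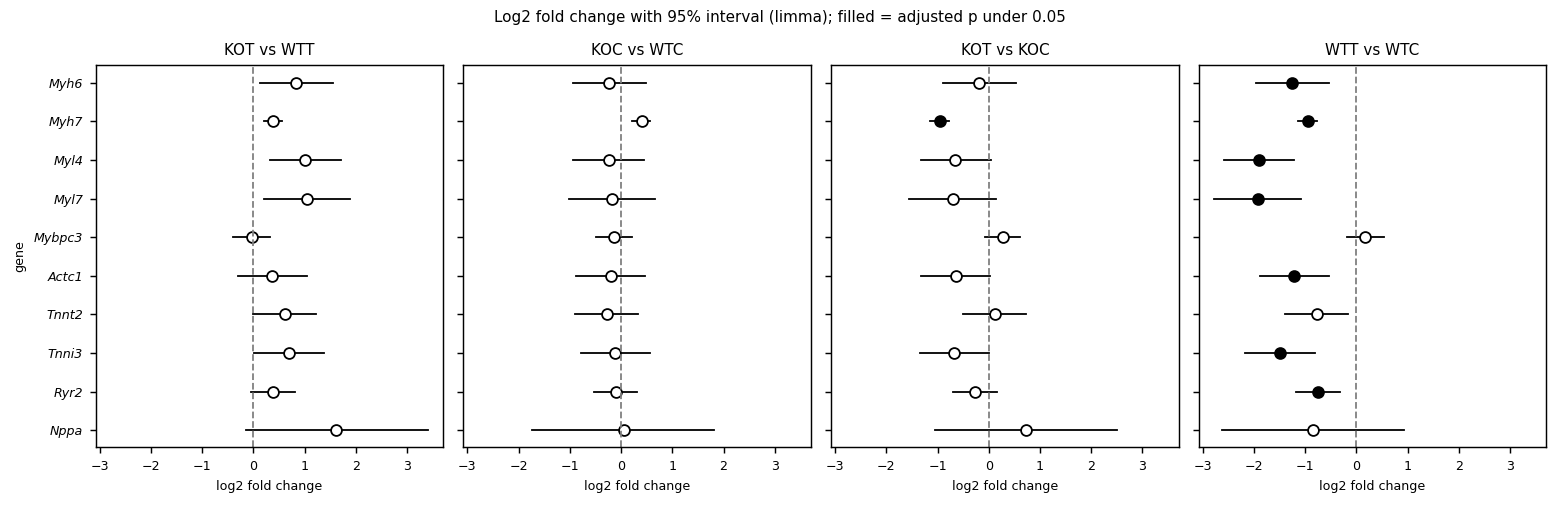
Log2 fold changes (x axis) of the 10 cardiac muscle genes (y axis) in 4 comparisons, with 95% intervals from limma; filled points passed an adjusted p under 0.05. In WTT against WTC 7 points are filled, in KOT against KOC only Myh7, and in the comparisons of genotypes none.

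Whether the response to bleomycin differed between genotypes was tested as (KOT minus KOC) minus (WTT minus WTC). By limma 0 of the 10 genes, and 0 of all 23410 clusters, passed this test, in which the lowest adjusted p of any cluster was 0.117. At an unadjusted p under 0.05 the count was 4 (Myh6, Myl4, Myl7 and Tnnt2), all positive, against 2.99% of all clusters positive at that level. The differences were 1.26 for Myl4 (SE 0.44, limma adjusted p = 0.933), 1.23 for Myl7 (SE 0.55, adjusted p = 0.963), 1.06 for Myh6 (SE 0.46, adjusted p = 0.963) and 0.89 for Tnnt2 (SE 0.40, adjusted p = 0.963), with a median of 0.85 over the 10 genes against -0.01 over all clusters. The passing of 7 genes in 1 genotype and 1 in the other therefore does not show a difference between them, since 0 of the 10 passed the test of it.

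The cardiac genes varied between mice of a group far more than most genes did. The SD within groups was 1.19 for Nppa, 0.56 for Myl7, 0.47 for Myh6, 0.46 for Myl4, 0.45 for Actc1, 0.45 for Tnni3 and 0.41 for Tnnt2 on the log2 scale, against a median of 0.13 over all clusters tested. Ryr2 (0.27) and Mybpc3 (0.22) were also above that median, and Myh7 (0.09) was below it. The same mice were high or low for most genes. WTT 164 was the lowest of all 12 mice for 8 genes and KOC 53 for the other 2, Mybpc3 and Nppa, while KOC 55 was the highest for 8. Within WTC, mouse 157 was the highest for 10 of 10.

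Over the 12 mice the 45 pairs of genes had a median Pearson r of 0.82, with a range of -0.47 to 1.00. A core of 7 genes (Myh6, Myl4, Myl7, Actc1, Tnnt2, Tnni3 and Ryr2) had r between 0.75 and 1.00 in its 21 pairs, and between 0.73 and 1.00 once each group's mean was subtracted. The core is what remained after setting aside Myh7, Mybpc3 and Nppa. These had the lowest r with the mean of the other members (0.69, 0.06 and 0.64), so high r inside the core follows in part from that choice. The tightest pair was Myl7 with Tnni3, at r = 1.00 and Spearman's rho = 1.00 (permutation p = 1.0e-05 for each, the smallest that 100000 resamples can give, adjusted p = 6.4e-05 and 7.5e-05 over the 45 pairs), with r = 0.99 without the 2 mice farthest from the median and 1.00 with group means subtracted. The remaining 3 genes followed the core less closely over the 12 mice. Myh7 had r between 0.47 (Tnnt2) and 0.84 (Tnni3) with the 7 core genes, and between 0.60 and 0.75 with group means subtracted. Mybpc3 had r between -0.47 and 0.51 with the other genes, but between 0.57 and 0.78 with group means subtracted, so that it varied with them from mouse to mouse inside the groups. Nppa had r between 0.50 (Actc1) and 0.88 (Tnnt2) with the 7 core genes. With group means subtracted it had r between 0.72 (Actc1) and 0.96 (Tnnt2), close to the range inside the core. Its lowest r was with Myh7, at 0.21, and at 0.45 with group means subtracted. The mouse KOC 53, the lowest of the PBS-treated mice for each of the 7 core genes, was at 8.97 for Myh7, close to KOC 67 at 9.00 and above all WTC mice. All 45 correlations rest on the same 12 arrays.

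**Figure D3:**
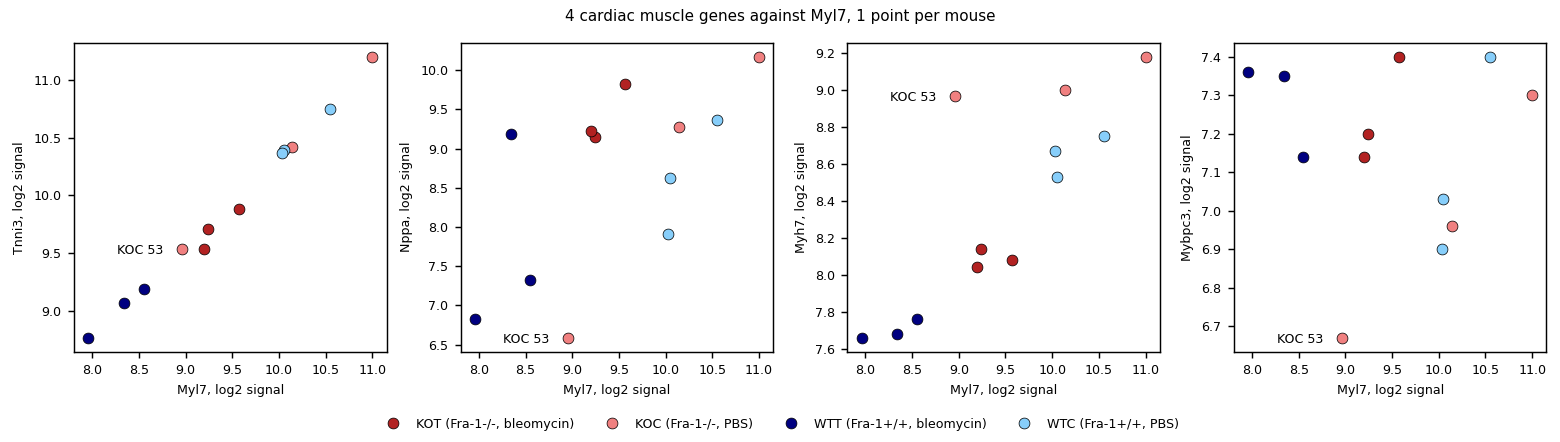
Log2 signal of Tnni3, Nppa, Myh7 and Mybpc3 (y axes) against that of Myl7 (x axes), with 1 point per mouse coloured by group. Tnni3 follows Myl7 in a line (r = 1.00), KOC 53 is low for Myl7 (8.96) and Nppa (6.59) but not for Myh7 (8.97), and Mybpc3 shows no common line across the groups.

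Of the 19928 other genes, those whose values followed the mean of the 10 most closely over the 12 mice were muscle genes in the main. They were Mybphl, an atrial myosin-binding protein (r = 0.98), Ckmt2, the mitochondrial creatine kinase of muscle (0.98), Lmod2, which sets thin filament length (0.98), Kcnj3, a channel subunit of the acetylcholine-gated potassium current of the atrium (0.96), Ttn, the titin gene (0.96), Mapk10, a JNK kinase (0.95), Eno3, muscle enolase (0.95), Myoz2, a Z-disc protein (0.95), Sln, sarcolipin, which inhibits the calcium pump in atrial muscle (0.94), and Smpx, a small muscle protein (0.94). With group means subtracted, r for these 10 lay between 0.87 and 0.98. These correlations are descriptions over 12 mice.

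Other genes of cardiac muscle, taken from lists of sarcomere, calcium and excitation, energy, transcription factor and chamber genes, were measured for 58 of 62. In WTT against WTC 15 of the 58 fell by limma and 0 rose, with a median log2 fold change of -0.31, where 11.3% of all clusters fell. The muscle energy genes were lower most often, with 8 of 9 passing and a median of -0.84. Myoglobin (Mb), the oxygen-binding protein of muscle, measured 8.27, 8.60 and 7.99 in KOT, 8.38, 10.10 and 9.40 in KOC, 7.84, 7.58 and 7.96 in WTT and 9.52, 9.88 and 9.31 in WTC, and fell in WTT against WTC by 1.78 (SE 0.34, limma adjusted p = 0.00376). Cox8b and Cox7a1, muscle-type subunits of cytochrome c oxidase that brown fat also uses, fell by 1.83 (SE 0.29) and 1.59 (SE 0.27), and Ckm, the cytosolic muscle creatine kinase, by 0.81 (SE 0.19). The ninth energy gene, Pgam2, lay at -0.15. Leaving out 1 mouse ended the call of Ckmt2 for each of the 6 WTT and WTC mice, that of Fabp3 for 4 (WTT 160, WTT 164, WTC 76 or WTC 157) and that of Cox6a2 for 2 (WTT 164 or WTC 157), with log2 fold changes of -0.86 for Ckmt2 (limma adjusted p = 0.115), -0.70 for Fabp3 (adjusted p = 0.0922) and -0.74 for Cox6a2 (adjusted p = 0.053) without WTT 164.

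Among sarcomere genes 2 of 20 fell in WTT against WTC, no larger a share than the 11.3% of all clusters. They were Smpx, lower by 0.90 (SE 0.25, limma adjusted p = 0.0238, and -0.71 at 0.0938 without WTT 164) and the Z-disc protein nebulette (Nebl) by 0.75 (SE 0.14, adjusted p = 0.00341). Ttn, at -0.54 (SE 0.23, adjusted p = 0.116), and the Z-disc protein gene Csrp3, at -0.65 (SE 0.23, adjusted p = 0.0728), did not pass. Of the calcium and excitation genes 4 of 17 fell: Kcnj3 by 1.01 (SE 0.31), the potassium channel gene Kcnq1 by 0.70 (SE 0.17), Sln by 0.57 (SE 0.18) and Popdc2, a membrane protein of muscle, by 0.46 (SE 0.14). These 4 calls were close to the threshold: leaving out 1 mouse ended that of Kcnj3 for 7 of the 12 mice and that of Sln for 7, with log2 fold changes of -0.80 for Kcnj3 (limma adjusted p = 0.136) and -0.46 for Sln (adjusted p = 0.147) without WTC 157, that of Popdc2 for 5 and that of Kcnq1 only without WTT 164 (-0.64). Phospholamban (Pln), the brake of the calcium pump, was at -0.86 (SE 0.33, limma adjusted p = 0.0906). Of the 6 atrial genes Sln, Kcnj3 and Mybphl fell. Mybphl fell by 0.95 (SE 0.25), a call lost without WTT 164, WTC 157 or WTC 158, with -0.85 (limma adjusted p = 0.0753) without WTT 164. Of the 3 ventricular genes 0 passed. Myl3 had every WTT mouse (6.91 to 7.18) below every WTC mouse (7.29 to 7.70), with a log2 fold change of -0.43 (SE 0.18, limma adjusted p = 0.115), and the ventricular light chain Myl2 lay between 5.53 and 5.69 in KOT, 5.58 and 5.67 in KOC, 5.69 and 5.99 in WTT and 5.60 and 5.73 in WTC. The 9 cardiac transcription factors, among them Nkx2-5, Gata4, Tbx5 and Tbx20, gave 0 limma calls in any comparison.

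In KOT against KOC 5 of the 58 genes fell and 0 rose, a share close to the 7.98% of all clusters called lower in this comparison. They were Cox8b by 1.02 (SE 0.29, limma adjusted p = 0.0367), Cox7a1 by 0.92 (SE 0.27, adjusted p = 0.0422), Nebl by 0.69 (SE 0.14, adjusted p = 0.00684), Kcnq1 by 0.63 (SE 0.17, adjusted p = 0.0264) and Myl3, a ventricular light chain also made by slow skeletal muscle, by 0.59 (SE 0.18, adjusted p = 0.0452). All but Myl3 had also fallen in Fra-1+/+ lungs. Of these 5 calls only that of Nebl held whichever mouse was left out, and without KOC 55 the others were at -0.63 for Cox8b (limma adjusted p = 0.0958), -0.58 for Cox7a1 (adjusted p = 0.136), -0.68 for Kcnq1 (adjusted p = 0.0542) and -0.40 for Myl3 (adjusted p = 0.163). Among the KOC mice, KOC 53 was lowest and KOC 55 highest for Cox8b, Cox7a1 and Myl3, as for the cardiac muscle genes followed here. This order was absent for Nebl, at 10.81, 10.71 and 10.65 in KOC 53, KOC 55 and KOC 67, and for Kcnq1, at 8.76, 8.60 and 8.74. Which cells the Nebl and Kcnq1 signals came from was not tested. Between genotypes 0 of the 58 passed by limma. At a limma unadjusted p under 0.05, 5 were higher and 3 lower in KOT against WTT, and 0 in KOC against WTC. At that level 4.27% of all clusters were higher in KOT against WTT and 2.94% in KOC against WTC. In either direction 2480 and 2299 of the 23410 clusters reached it.

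**Figure D4:**
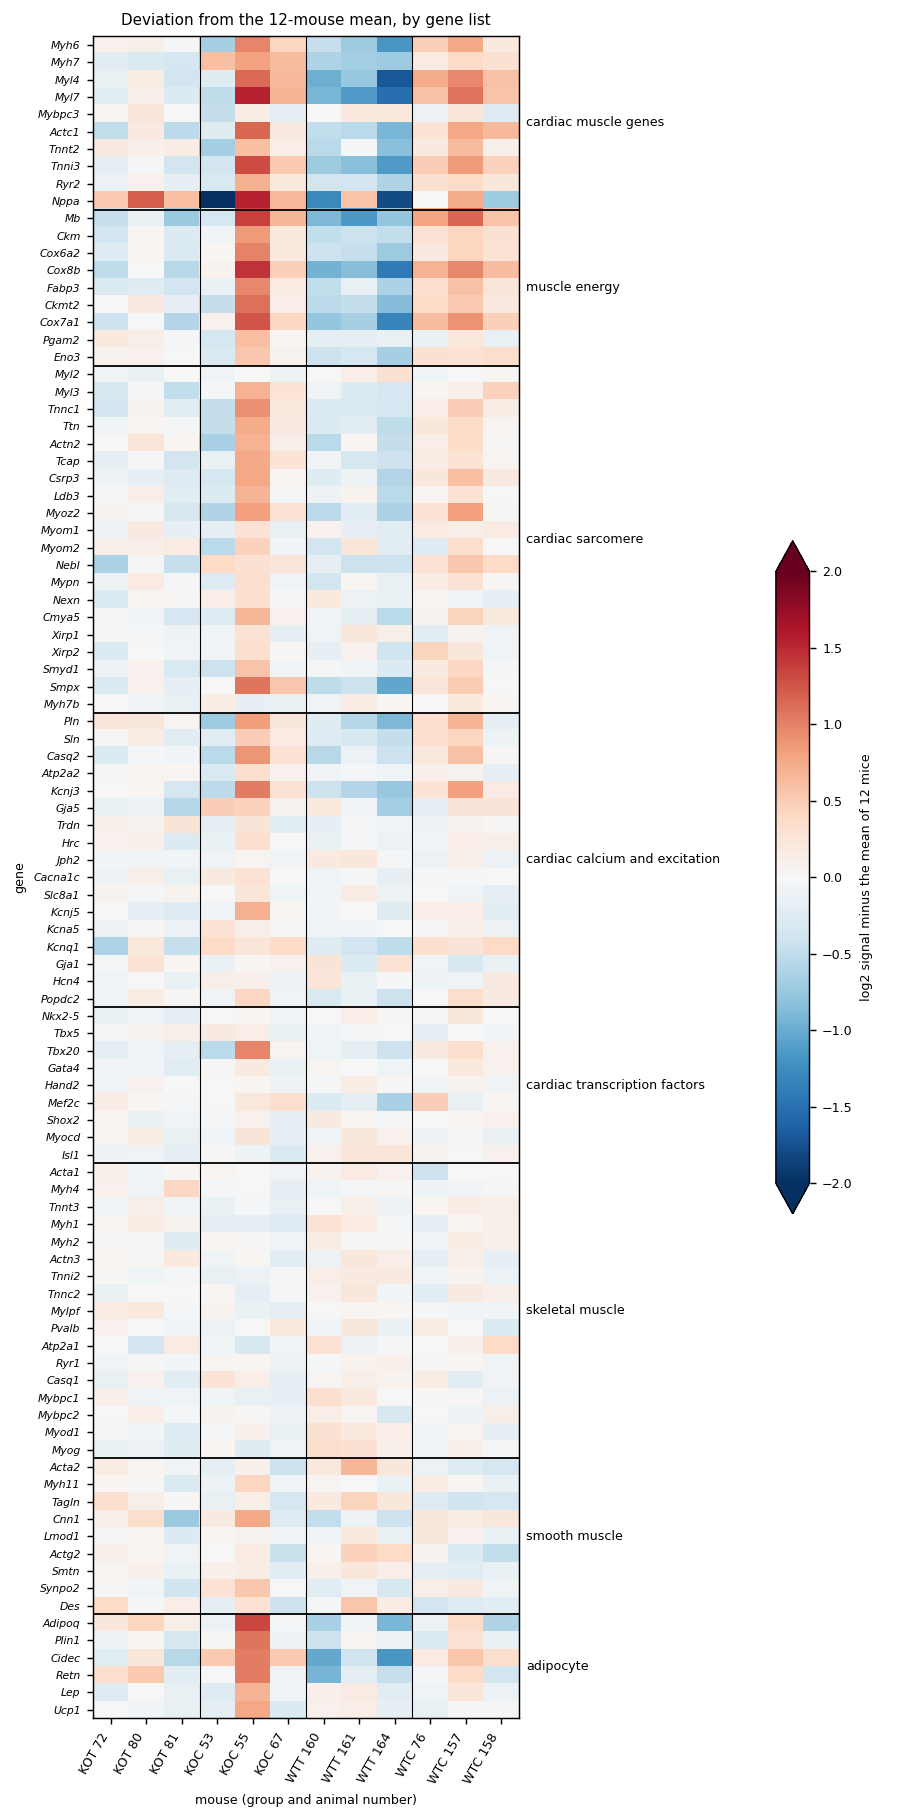
Log2 signal of each gene minus its mean over the 12 mice (colour), with genes down the y axis by list and mice along the x axis by group. The 10 cardiac muscle genes and the muscle energy genes are blue in the 3 WTT mice and red in KOC 55 with few exceptions, while the 17 skeletal muscle genes stay pale.

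Markers of other cells moved with these genes in part. None of 17 skeletal muscle genes passed by limma in WTT against WTC, with a median of 0.08. Several of them had low signals in every group, with WTC means of 5.30 for Myh4 and 5.21 for Myh1. Whether such low signals could have shown a fall was not tested. Acta1, the skeletal actin gene, lay between 7.77 and 7.93 in KOT, 7.76 and 7.88 in KOC, 7.90 and 7.99 in WTT and 7.41 and 7.84 in WTC. Of 9 smooth muscle genes 4 rose in WTT against WTC (Acta2, Tagln, Actg2 and Smtn), where 10.2% of all clusters rose, Acta2 by 0.61 (SE 0.15, limma adjusted p = 0.0129). The call of Actg2 was lost for 8 of the 12 omissions of a mouse and that of Smtn for 5, with 0.40 for Actg2 without WTC 158 and 0.30 for Smtn without WTT 161. Of the 9 genes 4 had a negative log2 fold change, and 2 of these did not overlap. Cnn1, the smooth muscle calponin gene, lay between 9.03 and 9.42 in WTT and 9.66 and 9.75 in WTC (-0.53, SE 0.27, limma adjusted p = 0.201) and was called lower by the local-pooled-error test (adjusted p = 0.00888). Synpo2 lay between 7.84 and 8.07 in WTT and 8.09 and 8.35 in WTC (-0.28, SE 0.14, limma adjusted p = 0.196). The summed linear signal of the list was 8705 to 10594 in KOT, 7381 to 11058 in KOC, 9809 to 12747 in WTT and 7951 to 8672 in WTC. Of all clusters, 11.3% were called lower by limma in WTT against WTC and 7.98% in KOT against KOC. Alveolar epithelial genes fell as the cardiac genes did in Fra-1+/+ lungs, with 6 of 8 lower in WTT against WTC, and 5 of 8 were lower in KOT against KOC. Their summed signal was 44458 to 55581 in KOT, 62808 to 65305 in KOC, 41856 to 50507 in WTT and 59310 to 64707 in WTC, and that of the 10 cardiac genes 7619 to 9883 in KOT, 6738 to 18627 in KOC, 3964 to 6268 in WTT and 11597 to 15270 in WTC. Airway epithelial genes were lower for 4 of 6 in WTT against WTC and 1 of 6 in KOT against KOC, against the same shares of all clusters.

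Adipocyte genes marked the same mouse as the cardiac genes did. The mean deviation of 6 adipocyte genes from their 12-mouse means was 0.99 in KOC 55, 0.00 in KOC 53 and -0.01 in KOC 67, and lay between -0.21 and 0.19 in KOT, -0.51 and -0.05 in WTT and -0.15 and 0.31 in WTC. Adiponectin (Adipoq) measured 7.89 in KOC 55 and between 5.64 and 6.98 in the other mice. Of the 6, Cidec, a lipid droplet protein, fell in both genotypes, by 0.88 (SE 0.23, limma adjusted p = 0.0264) in KOT against KOC and by 1.21 (SE 0.23, adjusted p = 0.00414) in WTT against WTC. The call in KOT against KOC was lost without KOT 72, KOT 81, KOC 53 or KOC 55, with -0.69 (limma adjusted p = 0.114) without KOT 81. The summed signal of the 6 genes was 703 to 1054 in KOT, 996 to 1807 in KOC, 530 to 772 in WTT and 871 to 1168 in WTC. The part of the epithelial, smooth muscle and adipocyte genes in the cardiac result was not tested.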

How the data were processed

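Total RNA of 12 left lungs was hybridised to Affymetrix MoGene 1.0ST arrays, 1 per mouse. The authors normalised probe signals by quantiles and summarised them by RMA in Affymetrix Power Tools (version and genome build not given in the sources used here), and deposited log2 values, which were used as they stand. Groups came from the labels. The annotation gives 1 symbol for 21789 of 35556 clusters, 2 for 725, 3 or more for 896 and none for 12146, and the 23410 clusters that have any were tested. In limma 3.58.1 (R 4.3.3) 1 model took a mean for each group over the 12 arrays (8 residual degrees of freedom), with Benjamini-Hochberg adjusted p under 0.05, two-sided. With 3 mice against 3 the smallest exact p is 0.1, and precision is limited by how few arrays there are. The local-pooled-error test of the methods was rewritten with 100 bins and an adjusted p under 0.01. Both were tested on simulated data with normal noise at each cluster's own SD within groups, a setting that goes against a pooled error. In these the local-pooled-error test called many more unchanged clusters than limma did. Correlations used 100000 permutations. The labels number the mice as separate animals but give no litter or batch, and detection calls were not used here. All 10 members, the gene lists (sarcomere, calcium and excitation, energy, transcription factors, atrial, ventricular, skeletal, smooth muscle, vein endothelium, adipocyte, mesothelium, thymus, alveolar, airway) and the tests were chosen with earlier results of these data known. Other genes were named from those lists: a set of key genes, any that passed where at most 5 of a list did, and the 10 most alike to the mean of the members. Cnn1, Synpo2, Slc6a2, Cd8b1 and Pgam2 were named after their values were seen.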

Additional observations from a re-analysis of the deposited data

Results flagged for a closer look

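Tnnt2, cardiac troponin T, drew attention because every KOT mouse lay above the KOC mean and every WTT mouse below the WTC mean. Nppa also had opposite signs, at 0.73 and -0.85, but WTT 161 (9.19) lay above its WTC mean of 8.63. For Tnnt2 the log2 fold change was 0.12 (SE 0.28) in KOT against KOC and -0.77 (SE 0.28) in WTT against WTC. The positive sign in KOT against KOC turned without KOC 53, to -0.23, and the difference of medians there was 0.01. The difference between the responses was 0.89 (SE 0.40), with a limma unadjusted p of 0.046 that did not pass after adjustment over all clusters (adjusted p = 0.963). The 3 KOT mice lay within 10.69 to 10.76, inside the KOC range of 9.91 to 11.19, while the WTT mice (9.75 to 10.54) lay below the WTC mice (10.68 to 11.22).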

How the results depend on the processing

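The limits are 3 mice per group, values already normalised by the authors and 1 cluster per gene. Each of the 10 members has only 1 cluster, so the alternatives that take another cluster gave no value. No paired analysis was possible because animal numbers are not shared between groups. Between other scalings, moderations, filters and sets of arrays, the count of members called in WTT against WTC was 7, except 4 at an adjusted p under 0.01 and 8 by the local-pooled-error test, and 4 to 8 with 1 mouse left out. In KOT against KOC it was 1, except 5 by the local-pooled-error test, and 1 to 4 with 1 mouse left out. In KOT against WTT it was 0, except 4 by the local-pooled-error test. In KOC against WTC and for the difference between responses it was 0 throughout. The median correlation of members lay between 0.77 and 0.88 with 1 mouse left out.

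Over these settings apart from omissions, with group medians added, 479 values of single members were rated unchanged, 10 gained a call, 4 lost it and 7 turned. Of the other named genes 313 were rated unchanged, 7 gained a call, 67 lost it and 0 turned. Unchanged meant the same direction and call, except for group medians, which carry no test. There a difference that had not passed was rated unchanged within the gene's SD within groups, whatever its sign. Turns of direction by group medians are therefore not among the 7. Directions turned only for differences that had not passed. In KOC against WTC, Myl7 was 0.09 and Tnni3 0.04 by the local-pooled-error test, Actc1 was 0.09 with a term for animal numbers, and Nppa was -0.21 with array weights. In KOT against KOC, Nppa was -0.04 by the local-pooled-error test. In KOT against WTT, Mybpc3 was 0.00 with cyclic loess. Myh7 was 0.03 with array weights for the difference between responses. With 1 mouse left out, the values in KOC against WTC ranged from -0.59 (without KOC 55) to 0.23 (without KOC 53) for Myh6 and, with the same mice left out, from -0.55 to 0.13 for Myl4, -0.66 to 0.36 for Myl7, -0.29 to 0.02 for Mybpc3, -0.60 to 0.10 for Actc1, -0.57 to 0.06 for Tnnt2, -0.52 to 0.31 for Tnni3, -0.36 to 0.15 for Ryr2 and -0.70 to 1.09 for Nppa. In KOT against KOC they ranged from -0.64 (without KOC 53) to 0.18 (without KOC 55) for Myh6, -0.23 to 0.41 for Tnnt2 and -0.32 to 1.47 for Nppa. In KOT against WTT Mybpc3 ranged from -0.11 to 0.02, and for the difference between responses Myh7 ranged from -0.06 to 0.05 and Mybpc3 from -0.05 to 0.26. The cause of these was not tested.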

Other observations

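Lists of neighbouring structures were also measured. Of 5 vein and large vessel endothelial genes 0 passed by limma in any comparison, and the local-pooled-error test called Slc6a2 lower in KOT against WTT and in KOC against WTC. The list had medians of -0.34 in KOT against WTT, -0.39 in KOC against WTC, 0.01 in KOT against KOC and 0.15 in WTT against WTC. Of 5 mesothelial genes only Upk3b passed by limma, lower by 0.42 (SE 0.12) both in KOT against KOC and in WTT against WTC, each call being lost for 4 of the 12 omissions of a mouse. The local-pooled-error test called Msln higher in WTT against WTC. The list's mean deviation from the 12-mouse mean ranged from -0.50 to 0.32 within KOC. Of 5 thymus genes 0 passed by limma in any comparison, and the local-pooled-error test called Cd8b1 lower in WTT against WTC. Of 17 skeletal muscle genes Myh1 alone passed by limma, higher in KOT against KOC, a call lost for 8 of the 12 omissions of a mouse.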
